A study of Mus musculus with 18 samples.

Results

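Somatostatin, encoded by Sst, and its receptors, encoded by Sstr1 to Sstr5, are described here across embryonic stem cell-derived spinal cord cultures in which single Hox genes were switched on. The members were found by matching the Entrez identifiers of the deposited counts to these 6 symbols, and all 6 were present among 27179 genes. All 6 also passed the filter of at least 1 count in any iHox library, as did 20944 genes in all. The genes were chosen by their RNA levels in these same counts, since the low Sst of iHoxc9 and iHoxc10 neurons and the unequal Sstr1 of these lines were already known. For all 6 members, the comparisons of iHoxc9 and iHoxc10 with control and with each other are therefore given as values, without a test.

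RNA-seq covered 6 groups of 3 libraries. The libraries of a group are described as independent differentiations. All cells were mouse Ainv15 embryonic stem cells grown as embryoid bodies in 1 µM retinoic acid and 0.5 µM of the Smoothened agonist SAG, signals that direct cells to ventral spinal cord motor neurons and interneurons. iHoxc6, iHoxc8, iHoxc9 and iHoxc10 neurons carry a single Flag-tagged Hox transgene at the Hprt locus, 1 line per gene, and were given doxycycline (Dox, 3 µg/ml) for 48 h and harvested on day 4. Control neurons are the iHoxc6 line on day 4 without Dox, so they also carry that transgene, and day 2 progenitors are the iCre line collected before Dox would be added. No control without Dox of the iHoxc8, iHoxc9 or iHoxc10 lines was analysed here.

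Total counts per library ranged from 24498630 to 33168533, at which 3 counts correspond to 0.0904 to 0.122 CPM (counts scaled to library size). This limit and the intervals below cover the error of counting alone. The most abundant gene took 1.19% to 2.02% of a library, except 5.76% in day 2 progenitors replicate 2. Each induced Hox gene stood between 213.3 and 532.0 CPM in its own line and at 5.17 CPM or less in control, counting transgene and endogenous reads together. The 6 neuron markers summed to between 4851 and 7021 CPM in every day 4 library and to between 273.7 and 549.3 CPM on day 2. By their run codes, control and iHoxc6 libraries shared a sequencing run, iHoxc9 and iHoxc10 shared another, and day 2 progenitors and iHoxc8 each had their own. In comparisons that involve an iHox line, cell line and Hox gene cannot be told apart except in iHoxc6 against control. Neither can the sequencing run, except in that comparison and in iHoxc9 against iHoxc10. Every iHox library received Dox and no control library did. Dox and the Hox gene therefore cannot be told apart in any comparison of an iHox line with control. For control against day 2 progenitors, the day, the cell line and the sequencing run cannot be told apart.

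Somatostatin is a secreted peptide that dampens hormone release and neuronal firing. It is cut from the end of a longer precursor and acts on 5 related G protein-coupled receptors, which couple to inhibitory G proteins, lower cyclic AMP and open potassium channels. In the spinal cord it is best known from excitatory interneurons of the dorsal horn, and in the brain from a class of inhibitory interneurons. The Sst gene is a classic target of the cyclic AMP-responsive factor CREB.

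The sequences below identify the ligand and a promoter element that was found for both Sst and Sstr2. Sst lies on the reverse strand of chr16:23889573-23890958 (GRCm38, GENCODE), with 2 exons and a coding sequence of 348 bases. The last 84 coding bases before the stop codon, in the second exon at chr16:23889732-23889815, encode the 28 residues of the longer mature peptide, and the capitals mark the 42 bases that encode the 14 residues of the shorter form.
Sst coding end: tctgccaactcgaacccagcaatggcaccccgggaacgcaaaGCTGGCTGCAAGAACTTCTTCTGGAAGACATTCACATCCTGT

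RefSeq promoter windows (GRCm38.p6, 250 bases before to 50 after the start) matched Sst, Sstr2, Sstr3 and Sstr4. No window matched Sstr1 or Sstr5, so their promoters were not searched. The cyclic AMP response element TGACGTCA, a palindrome searched on both strands, was found in the windows of Sst and Sstr2 and in 1.79% of all 32851 windows. The Sst window also held TGATTGAT, a core bound by Hox proteins together with cofactors, which 0.746% of windows hold, and no TGATTTAT, which 0.977% hold. None of these motifs was found in the windows of Sstr3 and Sstr4. Each stretch shows 30 bases with the motif in capitals. They lie at chr16:23890874-23890903 (reverse strand), chr11:113619258-113619287 (forward strand) and chr16:23890939-23890968 (reverse strand), with the motif's first base at -48, -58 and -113 from the RefSeq start. The longer first exon that GENCODE gives Sst covers all of the first stretch and part of the third. A match is a description of the letters and not a measured site.
Sst TGACGTCA: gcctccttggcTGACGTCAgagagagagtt
Sstr2 TGACGTCA: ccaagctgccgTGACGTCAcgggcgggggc
Sst TGATTGAT: cctcacttctgTGATTGATtttgcgaggct

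The receptor genes lie on 5 chromosomes, Sstr1 at chr12:58211772-58214444, Sstr2 at chr11:113619342-113626028, Sstr3 at chr15:78537008-78544685, Sstr4 at chr2:148395344-148396767 and Sstr5 at chr17:25489875-25497288. Their coding sequences measure between 1086 and 1284 bases, and 70.6% to 79.4% of aligned bases were identical between the 10 pairs, gaps left out. Sstr3 and Sstr5 were the closest pair by this measure (79.4%) and Sstr1 and Sstr4 with gaps counted (68.2%). No member shares exon bases with another annotated gene. Sstr2 lies within the span of Slc39a11, and the strand setting of the counting was not given in the sources used here.

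Sst was the most abundant member in control neurons and its level differed widely between groups. Its CPM, normalized by the TMM method of edgeR, was 166.4, 199.2 and 219.7 in the control libraries. It was 149.7, 103.4 and 135.0 in iHoxc6 and 52.4, 63.7 and 66.3 in iHoxc8. In iHoxc9 it was only 0.391, 0.441 and 0.756, from 10, 15 and 19 counts, and in iHoxc10 it was 2.66, 2.19 and 2.59, from 76, 61 and 64 counts. Day 2 progenitors held 13.3, 18.8 and 10.96 CPM. The means therefore ran from control (195.1 ± 26.9, SD, n = 3 here and below) through iHoxc6 (129.4 ± 23.6), iHoxc8 (60.8 ± 7.43), day 2 progenitors (14.4 ± 4.04) and iHoxc10 (2.48 ± 0.257) to iHoxc9 (0.530 ± 0.198). No neighbours in this order overlapped, and every iHoxc9 and iHoxc10 library lay below every day 2 library. In these bulk samples, fewer Sst-expressing cells and less Sst RNA per cell cannot be told apart.

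**Figure D1:**
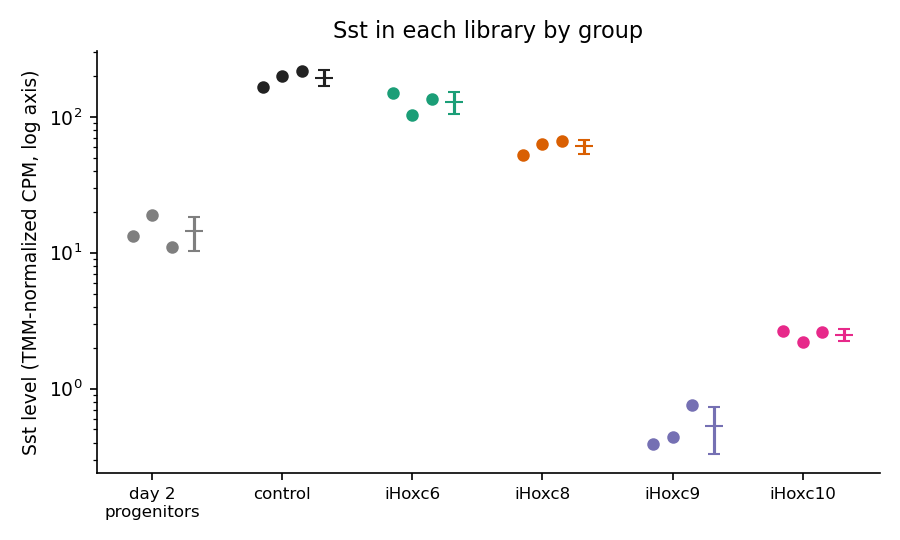
Sst level (TMM-normalized CPM, log axis) in each of the 3 libraries of 6 groups; points are libraries, and the bar beside them is the mean ± SD. The 6 groups do not overlap, from 166.4 to 219.7 CPM in control down to 0.391 to 0.756 CPM in iHoxc9.

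Sstr1 had its own pattern. It was 8.19, 4.24 and 4.98 CPM in control and 4.55, 7.02 and 2.47 CPM in iHoxc10, and these groups overlapped. It was 1.25, 1.18 and 1.18 CPM in iHoxc6 and 1.80, 1.87 and 1.63 CPM in iHoxc8. In iHoxc9 only 0, 6 and 2 counts were found, and on day 2 only 3, 0 and 2. The order was control (5.80 ± 2.10 CPM), iHoxc10 (4.68 ± 2.28), iHoxc8 (1.77 ± 0.126), iHoxc6 (1.21 ± 0.0423), iHoxc9 (0.0854 ± 0.0884) and day 2 progenitors (0.0545). The first and the last pair of neighbours overlapped and the others did not. The 2 groups in which Sst was lowest, iHoxc9 and iHoxc10, thus stood near opposite ends for Sstr1.

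Sstr2, the receptor that binds most clinical somatostatin analogs, and Sstr3, a receptor found on primary cilia of neurons, were highest in iHoxc6 neurons. Sstr2 measured 12.7, 10.8 and 11.8 CPM in iHoxc6, against 6.68, 6.16 and 5.95 in control and 5.29, 6.71 and 6.10 in iHoxc8. It measured 2.50, 2.09 and 2.87 CPM in iHoxc9, 3.05, 3.83 and 2.55 in iHoxc10, and 2.39, 2.56 and 2.31 in day 2 progenitors. The iHoxc6 libraries stood above all others, and control and iHoxc8 overlapped. The 3 lowest groups, iHoxc10, iHoxc9 and day 2 progenitors, lay below iHoxc8 without overlap, and neighbours among these 3 overlapped.

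Sstr3 measured 6.55, 5.04 and 7.81 CPM in iHoxc6 and 3.24, 4.51 and 2.84 in control. It measured 2.34, 2.47 and 2.94 CPM in iHoxc8, 2.73, 2.90 and 3.28 in iHoxc10, 1.41, 1.85 and 1.75 in iHoxc9, and 2.02, 1.76 and 0.718 in day 2 progenitors. Again iHoxc6 stood above all others without overlap, iHoxc9 lay below iHoxc8 without overlap, and the remaining neighbours overlapped. Sstr4 and Sstr5 were barely detected. Sstr4 had 1 to 6 counts in every library, near the limit of 3 counts, so no fold is given, and Sstr5 had 3 to 18 counts, with group means between 0.143 and 0.480 CPM. No neighbours in the order of the groups differed beyond their spread for either gene.

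**Figure D2:**
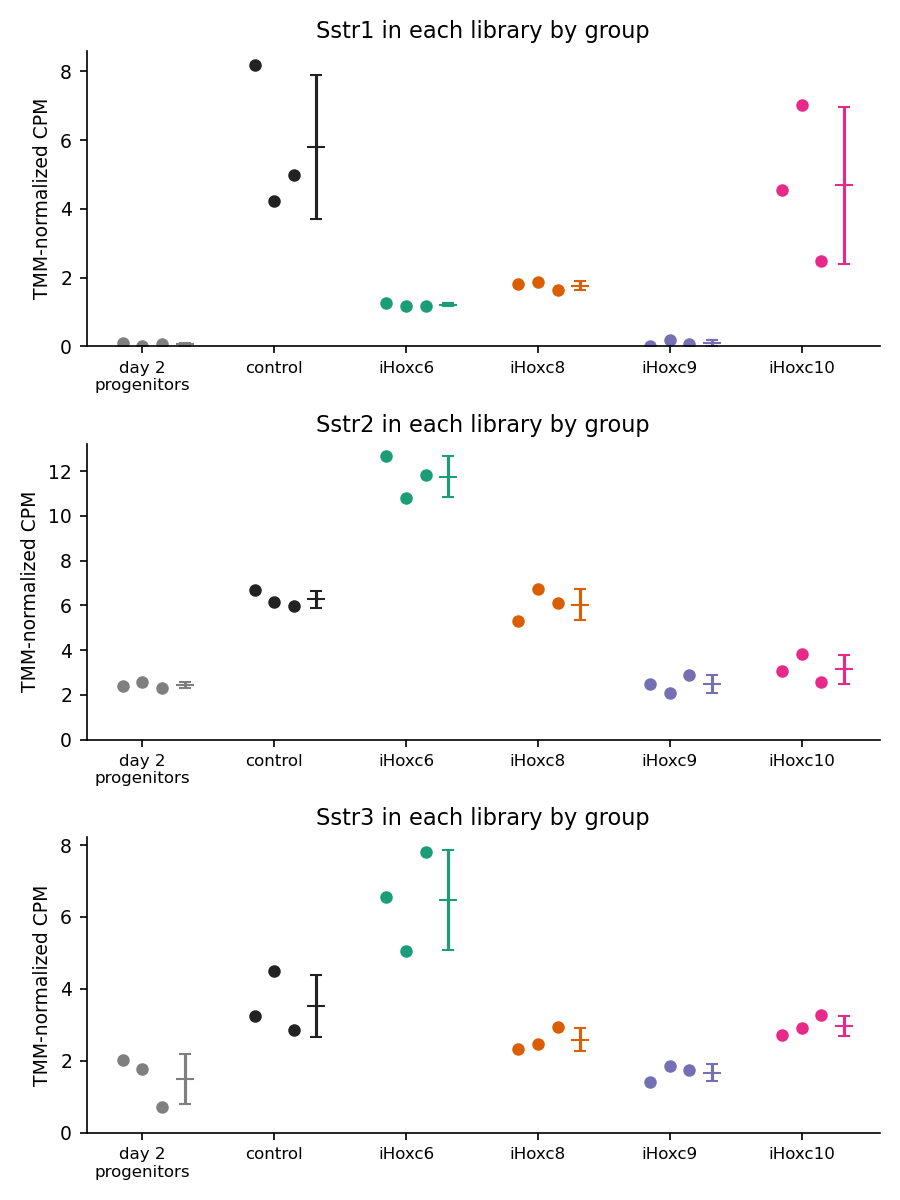
Sstr1, Sstr2 and Sstr3 levels (TMM-normalized CPM, linear axes from 0) in each library by group; points are libraries, and the bar beside them is the mean ± SD of 3. Sstr1 is highest in control and iHoxc10, whereas Sstr2 (10.8 to 12.7 CPM) and Sstr3 (5.04 to 7.81 CPM) are highest in iHoxc6.

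Between day 2 progenitors and control neurons, the ligand and 3 receptors rose. These groups also differ in cell line and sequencing run, which cannot be told apart from the day. Differences were tested by edgeR quasi-likelihood, fitting the 18 libraries together and adjusting p over the 20944 genes by Benjamini-Hochberg. A gene passed at an adjusted p below 0.01, and was called where its log2 fold change also exceeded 2 in size. All 3 control libraries lay above all 3 day 2 libraries for 4 of the 6 members and below for 0, as they did for 25.2% and 25% of all genes tested. The same 4 rose at the adjusted p alone, and 0 fell, where 21.2% of genes rose and 21.2% fell. With the fold, 2 rose and 0 fell, where 6.74% and 5.82% of genes did. Sst rose by a log2 fold change of 3.76 (SE 0.20, edgeR adjusted p = 5.80e-13), which is 13.6-fold. Sstr1 rose by 6.63 (SE 0.56, edgeR adjusted p = 9.63e-10). This estimate rests on 5 counts in the 3 day 2 libraries, and the ratio of summed counts was 109.0 with an exact 95% interval of 46.4 to 337.3 for counting error alone. Sstr2 rose by 1.37 (SE 0.18, edgeR adjusted p = 1.18e-06) and Sstr3 by 1.24 (SE 0.28, edgeR adjusted p = 0.000774). Sstr3 no longer passed when only these groups were fitted (adjusted p = 0.0209). Sstr5 differed by 1.10 (SE 0.53) and did not pass (edgeR adjusted p = 0.0886). The 7 motor neuron markers, which sum to 19.1 to 45.0 CPM on day 2 and to 544.5 to 570.8 CPM in control, moved with these members, as did the 6 neuron markers, and their part in the rise was not tested.

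In iHoxc6 neurons Sstr1 fell and Sstr2 rose against control, a comparison within 1 line and 1 sequencing run. Only the induced libraries received Dox, so Dox and Hoxc6 cannot be told apart. Of the 6 members, 2 lay above control in every library and 2 below, where 11.9% and 12.4% of all genes did so. At the adjusted p alone 1 member rose and 1 fell (0.363% and 0.224% of all genes), and 0 rose and 1 fell with the fold threshold added (0.043% and 0.0716%). Sstr1 had a log2 fold change of -2.27 (SE 0.36, edgeR adjusted p = 0.00124), a 4.81-fold drop. Its adjusted p rose to between 0.0119 and 0.0143 without control replicate 1, iHoxc6 replicate 1 or iHoxc6 replicate 2, and without control replicate 1 the log2 fold change was -1.93. Sstr2 rose by 0.91 (SE 0.17, edgeR adjusted p = 0.00555), which is 1.87-fold. That adjusted p was 0.0121 to 0.0489 when either control replicate 1 or 3 or any iHoxc6 replicate was left out, and 0.018 when only these groups were fitted. Sst was lower in all 3 libraries, with a log2 fold change of -0.59 (SE 0.18, edgeR adjusted p = 0.0679), and did not pass. Sstr3 was higher in all 3 libraries, with 0.87 (SE 0.26, edgeR adjusted p = 0.0653), and did not pass either. Sstr5 gave 0.02 (SE 0.47).

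In iHoxc8 neurons Sst and Sstr1 fell while Sstr2 stayed close to control. Of the 6 members, 0 lay above control in every library and 2 below (10.3% and 9.51% of all genes), and the same 2 fell at the adjusted p alone (1.09% of all genes), while 0 rose (1.03%). With the fold threshold added, 0 members fell or rose, against 0.0812% and 0.138% of all genes. Sst fell by 1.68 (SE 0.19, edgeR adjusted p = 1.08e-05), which is 3.21-fold, and stayed past the threshold under all 12 alternatives. Sstr1 fell by 1.72 (SE 0.35, edgeR adjusted p = 0.00547), which is 3.29-fold. It no longer passed with the stricter filter on low counts (adjusted p = 0.0102) and when control replicate 1 or 3 or any iHoxc8 replicate was left out (0.0105 to 0.0334). Sstr2 gave -0.06 (SE 0.17, edgeR adjusted p = 0.920), Sstr3 -0.45 (SE 0.27, edgeR adjusted p = 0.338) and Sstr5 -0.42 (SE 0.49, edgeR adjusted p = 0.644).

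Against the same control libraries, iHoxc9 neurons were lower in Sst and 3 receptors. The values are a description because this response chose the genes. In every library 4 members lay below control and 0 above, where 17.7% and 20.9% of all genes did so. The log2 fold change was -8.53 (SE 0.28) for Sst, which is 371-fold, and leaving out iHoxc9 replicate 3, the highest of that group, gave -8.90. It was -5.90 (SE 0.52) for Sstr1, resting on 8 counts in iHoxc9, and the ratio of summed counts of control over iHoxc9 was 62.9 with an exact 95% counting interval of 31.7 to 146.5. Leaving out iHoxc9 replicate 2, which held 6 of these counts, moved the Sstr1 value to -7.05. Sstr2 gave -1.34 (SE 0.18), Sstr3 -1.07 (SE 0.28) and Sstr5 0.27 (SE 0.47).

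In iHoxc10 neurons, 2 members lay below control in every library and 0 above, where 17.5% and 17.3% of all genes did so. These were Sst, with -6.30 (SE 0.24), which is 78.6-fold, and Sstr2, with -0.99 (SE 0.18). Sstr1 gave -0.31 (SE 0.33), Sstr3 -0.25 (SE 0.27) and Sstr5 0.61 (SE 0.45), all with overlapping libraries.

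Between iHoxc9 and iHoxc10, which shared a run, 3 members were lower in every iHoxc9 library and 0 higher, where 13.6% and 17.4% of all genes were. Sst gave -2.24 (SE 0.29), or -2.57 without iHoxc9 replicate 3, and Sstr1 gave -5.59 (SE 0.53), or -6.75 without iHoxc9 replicate 2. The ratio of summed Sstr1 counts of iHoxc10 over iHoxc9 was 50.5 with an exact 95% counting interval of 25.4 to 117.7. Sstr3 gave -0.82 (SE 0.28), and Sstr2, with -0.35 (SE 0.19), overlapped.

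**Figure D3:**
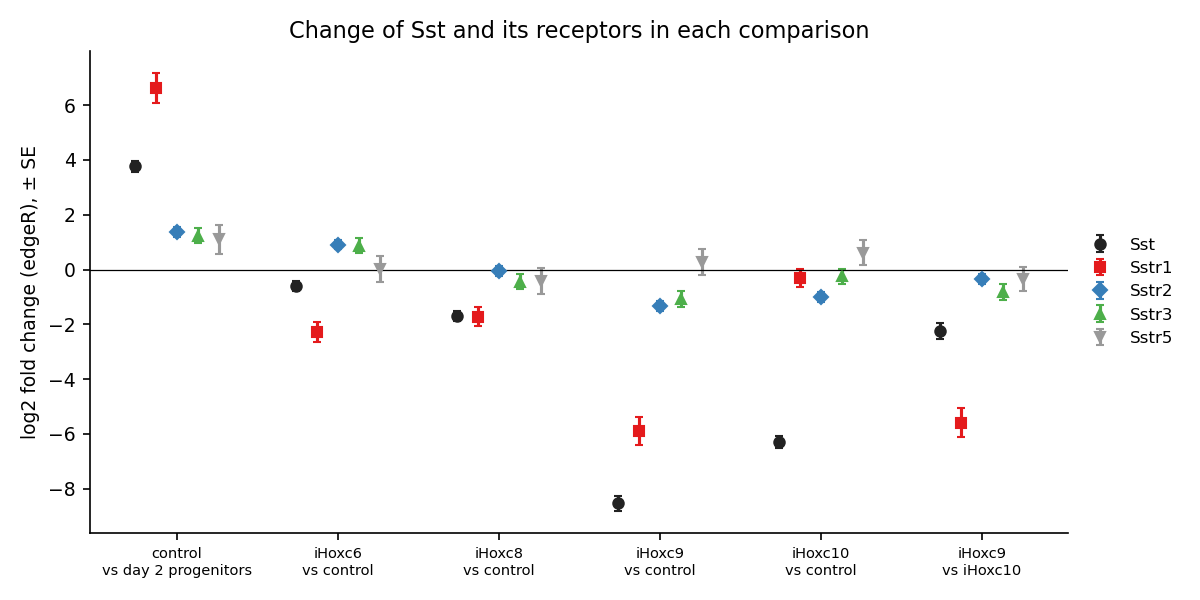
Log2 fold change (edgeR, vertical axis; bars are SE) of Sst and 4 receptors in 6 comparisons, of which the 4 against control share the 3 control libraries. Sst runs from 3.76 (control against day 2 progenitors) to -8.53 (iHoxc9 against control), and Sstr1 is low against control in iHoxc6, iHoxc8 and iHoxc9 but not in iHoxc10 (-0.31).

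Markers of several cell types moved in the same libraries as the members. Against the 544.5 to 570.8 CPM of control, the 7 motor neuron markers summed to 298.5 to 323.7 CPM in iHoxc9, the lowest, and to 391.5 to 445.5 in iHoxc6. They reached 431.1 to 467.8 in iHoxc8 and 486.0 to 546.9 in iHoxc10. At the adjusted p, 1, 2, 4 and 2 of these 7 genes were lower than control in iHoxc6, iHoxc8, iHoxc9 and iHoxc10, and 0 were higher. In the same order, 0.224%, 1.09%, 7.13% and 7.75% of all genes were lower, and 0.363%, 1.03%, 6.95% and 6.67% were higher. The 3 V2b interneuron markers summed to 2.21 to 2.85 CPM in control and to 0.199 to 1.09 CPM in the 4 iHox lines. Of these, Tal1, a V2b transcription factor, was lower in every line, from a log2 fold change of -4.34 (SE 0.62) in iHoxc6 to -1.74 (SE 0.47) in iHoxc10. The 4 V2a interneuron markers summed to 70.3 to 71.2 CPM in control and 17.2 to 50.8 CPM in the lines.

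The 3 V3 interneuron markers went the other way, from 6.03 to 12.5 CPM in control to 47.6 to 57.2 CPM in iHoxc9 and 23.9 to 32.1 CPM in iHoxc10. The 6 neural crest or sensory neuron markers, one of them Isl1, which is also a motor neuron marker, summed to 132.8 to 155.8 CPM in control. They reached 165.8 to 228.6 CPM in iHoxc6, iHoxc8 and iHoxc10 but only 63.2 to 72.6 CPM in iHoxc9. The 5 dorsal interneuron markers, among the classes known for Sst in the spinal cord, summed to 3.27 to 4.88 CPM in control and to 4.94 to 12.5 CPM in the iHox lines. In iHoxc9 the sum was carried by Tlx3, a dorsal excitatory neuron factor (6.40 against 0.619 CPM in control), and Pou4f1, which is also a sensory neuron marker (5.04 against 2.01 CPM), and both passed the test. Lmx1b (0.302 against 1.05 CPM) and Lbx1 (0.200 against 0.544 CPM) lay lower without passing, Barhl1 was at 0, and the median log2 fold change of the 5 was -1.36. The 4 markers of GABA or glycine transmission did not exceed a sum of 2.79 CPM anywhere. The part of these cell types in the changes of Sst and its receptors was not tested.

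Set per kilobase of exon, the ligand exceeded all receptors together in 12 of the 12 libraries of day 2 progenitors, control, iHoxc6 and iHoxc8, and in 1 of the 6 of iHoxc9 and iHoxc10. Sst stood at 230.8, 276.3 and 304.7 CPM per kilobase in control, where the 5 receptors summed to 8.05, 6.21 and 6.04. The ratio of Sst to the receptor sum averaged 41.2 ± 11.2 for control neurons, 23.0 ± 2.33 for iHoxc6 neurons, 18.8 ± 1.38 for iHoxc8 neurons and 12.04 ± 2.72 in day 2 progenitors. It averaged 0.778 ± 0.260 in iHoxc10, with single libraries at 0.831, 0.496 and 1.01, and 0.405 ± 0.114 in iHoxc9, with 0.310, 0.374 and 0.533. Control, iHoxc6 and iHoxc8 did not overlap with the iHoxc9 and iHoxc10 libraries. These levels concern RNA and are given without a test.

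**Figure D4:**
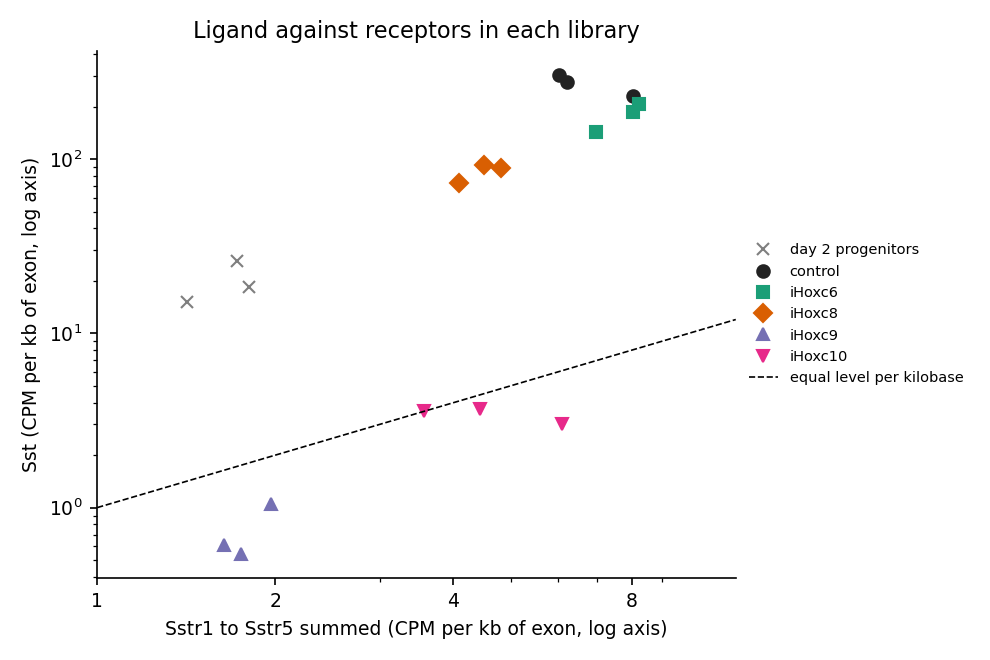
Sst level against the summed level of Sstr1 to Sstr5 (CPM per kilobase of exon, log axes) in each of 18 libraries, with the dashed line marking equal levels. The 12 libraries of day 2 progenitors, control, iHoxc6 and iHoxc8 lie above the line, and the iHoxc9 libraries lie below it.

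The receptor sum itself varied less than the ligand, from 1.65 CPM per kilobase in day 2 progenitors and 1.79 ± 0.169 in iHoxc9 to 7.75 in iHoxc6, and its make-up changed between groups. Sstr2 held 43.7% of the sum in control, against 70.8% in iHoxc6, 69.1% in day 2 progenitors, 64.7% in iHoxc9 and 62.9% in iHoxc8. Sstr1 held 41.1% in control, against 19.4% in iHoxc8, 7.64% in iHoxc6, 2.41% in iHoxc9 and 1.63% on day 2. In iHoxc10 the order turned, with Sstr1 at 46.7% and Sstr2 at 31.5%. Sstr1 was the highest receptor in all 3 iHoxc10 libraries and in control replicate 1, and Sstr2 in the other 14. Sstr3 kept between 12.3% and 21.8% in the group means.

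**Figure D5:**
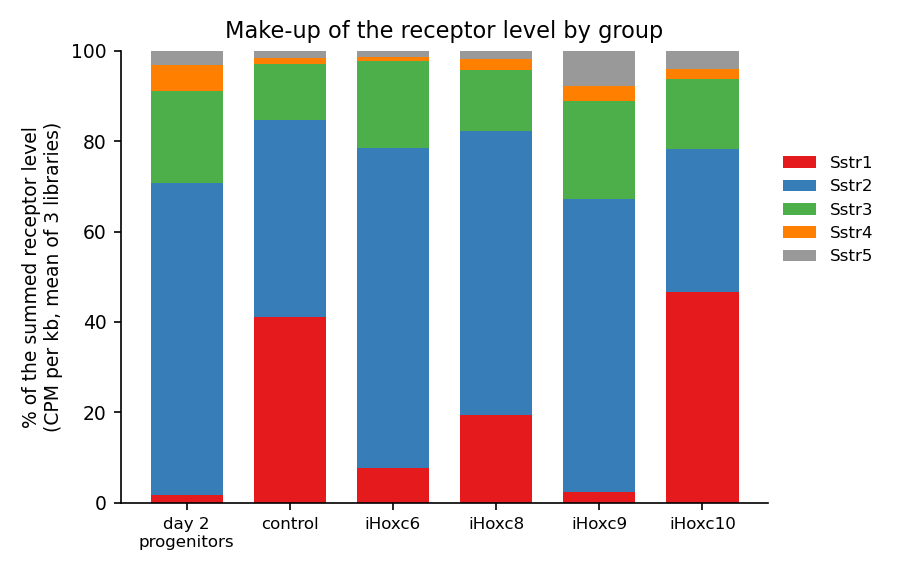
Share of each receptor in the summed receptor level (% of CPM per kilobase of exon, mean of 3 libraries) by group. Sstr2 takes the largest share in every group except iHoxc10, where Sstr1 takes 46.7%.

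Peptides and receptors related to the somatostatin system were mostly near the detection limit. Cort, whose product cortistatin binds the same receptors, had at most 17 counts in a library, Uts2, urotensin II, had 0 counts outside iHoxc9 and at most 2 within it, and Uts2r, its receptor, at most 7. Uts2b, a urotensin II-related peptide, was the exception at 32.7 ± 2.24 CPM in iHoxc6 and 31.8 ± 10.8 in control. It stood at 17.9 ± 2.07 CPM in iHoxc8 and 17.5 ± 1.75 in iHoxc9, and at 3.47 ± 0.466 in iHoxc10 and 0.487 ± 0.480 on day 2. Among the 4 genes, 0 passed the adjusted p in either direction in iHoxc6, iHoxc8 and iHoxc9 against control. In that order, 0.363%, 1.03% and 6.95% of all genes rose there, and 0.224%, 1.09% and 7.13% fell. Uts2b fell in iHoxc10 by 3.20 on the log2 scale (SE 0.30, edgeR adjusted p = 1.33e-07). Unlike Sst, it was higher in iHoxc9 than in iHoxc10 (log2 fold change 2.33, SE 0.30, edgeR adjusted p = 8.78e-06).

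Of the 9 genes of precursor processing, 5 rose and 0 fell between day 2 and control, where 21.2% of all genes rose and 21.2% fell. Their median log2 fold change was 1.35, against 0 over all genes. Those that rose were Pcsk1n, an inhibitor of the convertase PC1/3, by 4.66 (SE 0.33), Pcsk2, the convertase PC2, by 3.77 (SE 0.20), Scg5, its chaperone, by 2.24 (SE 0.23), Cpe, the carboxypeptidase that trims peptide ends, by 2.08 (SE 0.12), and Pcsk1, PC1/3 itself, by 1.35 (SE 0.42). Pcsk1 did not pass in 7 of 12 alternatives, and without control replicate 1 its log2 fold change was 0.62. In iHoxc6 0 of 9 passed, where 0.363% of all genes rose and 0.224% fell. In iHoxc8, where 1.03% rose and 1.09% fell, 1 rose, Pcsk1n, by 1.25 (SE 0.25, edgeR adjusted p = 0.00532). In iHoxc9, where 6.95% of all genes were higher and 7.13% lower at the adjusted p, 2 rose and 1 fell. These were Pcsk6, a convertase of the furin family, by 1.20 (SE 0.21), Cpe by 0.57 (SE 0.12) and Pcsk1, which fell by 2.12 (SE 0.46). In iHoxc10 (6.67% and 7.75% of all genes) 2 rose and 1 fell, Pcsk1n by 1.43 (SE 0.25), Cpe by 0.70 (SE 0.12), and Pcsk1, which fell by 2.05 (SE 0.46). Without control replicate 1, Pcsk1 gave -1.39 in iHoxc9 (adjusted p = 0.0272) and -1.32 in iHoxc10 (adjusted p = 0.0347). It also did not pass without iHoxc9 replicate 1 (0.0125) and without iHoxc10 replicate 1 (0.0176). Cpe in iHoxc9 did not pass in 3 of 12 alternatives, nor Pcsk1n in iHoxc8 in 4 of 12.

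The genes that carry the signal of the receptors ranged widely in level, and Kcnj3, Kcnj5, Kcnj6 and Kcnj9, subunits of the potassium channels that the receptors open, averaged under 1 CPM in every group, with Kcnj5 at 0 counts on day 2. Of 22 genes, 8 rose and 3 fell between day 2 and control, where 21.2% of all genes rose and 21.2% fell, led by Adcy5, an adenylyl cyclase inhibited by these receptors' G proteins, with 4.26 (SE 0.22), and Gnao1, the neuronal G protein alpha-o subunit, with 4.09 (SE 0.17). Ptpn6, the phosphatase SHP-1 known from receptor signalling in other cells, fell by 2.71 (SE 0.31). In iHoxc6 0 of 22 passed (0.363% of all genes rose and 0.224% fell). In iHoxc8 1 rose (1.03% of all genes rose and 1.09% fell), Gnai1, an inhibitory alpha subunit, with 0.81 (SE 0.15). In iHoxc9 3 rose and 1 fell (6.95% and 7.13% of all genes), and the named ones were the receptor kinase Grk3 with 1.47 (SE 0.24), Adcy2 with 0.80 (SE 0.13) and Gnai1 with 0.64 (SE 0.15). In iHoxc10 3 rose and 1 fell (6.67% and 7.75% of all genes), Adcy2 with 1.21 (SE 0.13), Gnai1 with 0.94 (SE 0.15), Gnao1 with 0.92 (SE 0.15) and the calcium-stimulated cyclase Adcy8, which fell by 2.30 (SE 0.45). Medians of the 22 log2 fold changes lay between 0.05 and 0.22 in the 4 comparisons with control, beside medians over all genes of 0 to 0.02. Gnai1 did not pass in 4 of 12 alternatives in iHoxc8 and in 3 of 12 in iHoxc9.

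Of 11 factors known to act on the Sst gene in other tissues, 10 were tested, and Pdx1 did not pass the filter on low counts. In iHoxc6 and iHoxc8, 0 of 10 passed in either direction, where 0.363% and 1.03% of all genes rose and 0.224% and 1.09% fell. In iHoxc9, Satb1, a chromatin organizer needed by cortical somatostatin interneurons, rose by 0.80 (SE 0.19), and Pknox1, the homeodomain factor PREP1, rose by 0.72 (SE 0.11), and Satb1 did not pass in 3 of 12 alternatives. In iHoxc10, Pax6, a homeodomain and paired domain factor, fell by 1.28 (SE 0.22). Between iHoxc9 and iHoxc10 (2.6% of all genes higher and 2.4% lower), Pax6 was higher in iHoxc9 by 1.95 (SE 0.21) and Isl1 was lower, at -1.27 (SE 0.26). Isl1 did not pass in 2 of 12 alternatives. Between day 2 and control 3 rose and 4 fell (21.2% and 21.2% of all genes), among them Isl1, a LIM factor, with 2.87 (SE 0.27), Pax6 with -3.54 (SE 0.21), Atf1 with -2.08 (SE 0.20) and Creb1 with -1.12 (SE 0.21), the last pair binding the cyclic AMP response element shown above.

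The genes whose pattern was most like that of a member were ranked by Pearson's r of log2(CPM + 1) over the 18 libraries, among 12856 genes with a mean of at least 1 CPM. The libraries of a group share their line, day and run, so r describes mostly the 6 groups and is given without a test. For Sst they were Ddc, aromatic amino acid decarboxylase, at 0.962, Me3 at 0.940, Cldn3 at 0.904, Tmem164 at 0.901 and Cmtm8 at 0.899. Ddc was at 168.6 CPM in control and 25.7 CPM in iHoxc9. For Sstr1 they were Hoxb7 at 0.947, Smug1 at 0.907, Crnde at 0.894, Zfyve28 at 0.891 and A830018L16Rik at 0.889, and Hoxb7 was at 28.04 CPM in control and 5.04 CPM in iHoxc9. For Sstr2 they were Fam174b at 0.916, Gm2694 at 0.913, Kcne1l at 0.906, Dbh at 0.899 and Bace2 at 0.894. For Sstr3 they included Rtca at 0.886, Sstr2 at 0.845, Itga7 at 0.840 and Plk3 at 0.834. Among the members themselves, r was 0.819 between Sst and Sstr2, 0.603 between Sst and Sstr3, and 0.392 between Sst and Sstr1.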

How the data were processed

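RNA-seq of 18 libraries was analysed. The authors prepared poly(A) libraries with a stranded kit, sequenced single-end 75-base reads, aligned them with STAR (2.7.0c) to mm10, counted them on RefSeq genes with featureCounts and merged genes by Entrez identifier. The deposited values are raw counts per gene, not normalized, with replicates kept apart, and their strand setting is not given in the sources used here. The authors' own comparisons used DESeq2 (1.20.0). Libraries were grouped by their labels. Symbols matched 25275 of 27179 identifiers.

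Here edgeR 4.0.16 (R 4.3.3) normalized the counts (TMM) and fitted the 18 libraries together, with group as the only term. The thresholds follow those of the study. Alternatives were DESeq2 1.42.0 (Wald test, and its size factors within edgeR), other filters on low counts, fits of only the groups compared, fold thresholds of 1 or none, a block for the replicate number, and leaving out single libraries. Levels per kilobase used merged GENCODE exons of GRCm38. Receptor identity was taken from aligned coding sequences, not proteins as planned, with Biopython 1.88. The code was tested on simulated data with known fold changes. Replicates did not coincide: the chi-square per degree of freedom of replicate pairs was at least 5.77.

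Replicates carry the numbers 1 to 3 in each group's labels. Deviations of same-numbered libraries from their group means correlated at 0.58, 0.47 and 0.65 between iHoxc9 and iHoxc10, which meets the criterion for pairing (over 0.1 in all 3 pairs), and not in all 3 pairs elsewhere. All values printed for that comparison are nevertheless from the fit without the block, and the blocked fit was an alternative. The members, lists and markers were chosen with earlier results of these data known. Named genes are the 6 members, up to 5 genes per list and comparison past an adjusted p of 0.01 with a mean of at least 1 CPM in a group compared, and the 5 genes most like each member that reaches 1 CPM. Genes named outside this rule (Cort, Uts2, Uts2r and the induced Hox genes) are given by level only. Some genes that this rule selects are not reported here.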

Additional observations from a re-analysis of the deposited data

Results flagged for a closer look

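The responses of Sstr2 and Sstr3 differed in direction between lines, in that every library of one line lay above every control library and every library of the other lay below. For Sstr2, the log2 fold change against control in iHoxc6 exceeded that in iHoxc9 by 2.25 and that in iHoxc10 by 1.90. For Sstr3, the log2 fold change in iHoxc6 exceeded that in iHoxc9 by 1.94. These comparisons share the control libraries, and the differences themselves were not tested. Both genes entered the description with the response in iHoxc9 and iHoxc10 known.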

How the results depend on the processing

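The log2 of Sst over the receptor sum moved with the definition. Without division by length control stood at 3.61, iHoxc6 at 2.69, iHoxc8 at 2.49, day 2 progenitors at 1.74, iHoxc10 at -2.18 and iHoxc9 at -3.21. With the highest receptor in place of the sum these were 6.40, 5.02, 4.90, 4.10, 0.71 and -0.71 in the same order, so that iHoxc10 turned from -0.42 to positive, by construction. For iHoxc6 against control, members higher at the adjusted p went from 1 to 0 when only these groups were fitted, and ranged from 0 to 1 with a library left out; members lower ranged from 0 to 1, also with the fold threshold; dropping that threshold gave 1 higher in place of 0. For iHoxc8, members lower went from 2 to 1 with at least 10 counts in 3 libraries and ranged from 1 to 2 with a library left out; a fold threshold of 1 or none gave 2 in place of 0. For control against day 2, the same thresholds gave 4 in place of 2. Without iHoxc9 replicate 3, Sst gave -8.90 against control and -2.57 against iHoxc10; with a library left out it ranged from -8.90 to -8.38 and from -2.57 to -2.08. Sstr5 in iHoxc6 reversed to -0.024 with DESeq2 size factors, -0.023 with the DESeq2 test, -0.22 without control replicate 3 and -0.24 without iHoxc6 replicate 1 (range with a library left out, -0.24 to 0.19). Sstr2 in iHoxc8 reversed to 0.031 without iHoxc8 replicate 1 (range, -0.14 to 0.031). The cause was not tested. Under the replicate block, Sst gave -0.58 in iHoxc6, -1.68 in iHoxc8, 3.76 in control against day 2 and, in the paired comparison of iHoxc9 with iHoxc10, -2.24. The block changed no call of a member. Outside that pair of lines, same-numbered libraries correlated at -0.51 to 0.35. Depth limits Sstr4 and Sstr5, and Sstr1 in iHoxc9 and on day 2.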

Other observations

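The remaining marker lists are given as summed levels. The 3 V0 interneuron markers ranged from 0.436 to 2.62 CPM and the 3 V1 interneuron markers from 0.434 to 3.59 CPM over the 18 libraries. The 5 astrocyte or oligodendrocyte markers ranged from 0.9 to 7.15 CPM, with Gfap at 0 in control, iHoxc9 and iHoxc10. The 4 pluripotent cell markers did not exceed 5.15 CPM, with Nanog and Pou5f1 at 0 in control. The 5 endothelium or mesoderm markers ranged from 1.37 to 11.8 CPM. Of 6 endoderm or islet markers, Pdx1, Ins2 and Gcg had no count in any iHox library and did not pass the filter. The other 3 summed to 2.25 to 3.15 CPM in control and 2.16 to 3.21 CPM in iHoxc8. They reached 3.86 to 9.02 CPM in iHoxc6, 6.06 to 9.83 CPM in iHoxc9 and 5.96 to 10.2 CPM in iHoxc10. In control, iHoxc9 and iHoxc10 nearly all of the sum was Neurog3 (means of 2.35, 7.39 and 7.96 CPM), a factor that neural progenitors also express. The 6 motor neuron progenitor markers ranged from 160.5 to 311.7 CPM. In iHoxc9 against control 3 of them were higher and 2 lower at the adjusted p, where 6.95% of all genes were higher and 7.13% lower. Among these markers were Sox2 (85.1 against 39.7 CPM) and Olig2 (30.9 against 73.3 CPM). Their part in the results for Sst and its receptors was not tested.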
